A study of Homo sapiens with 9 samples.

Results

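The transcriptome described here is that of Raji cells treated with DMSO, the solvent control of a study of DNA replication stress in a human Burkitt lymphoma line. It rests on 3 of the 9 RNA libraries of the study (DMSO replicates 1 to 3), chosen by their label alone, and no treated library was used. Raji is an established line of B-lymphoma cells, and every library of the study comes from it, so that nothing here separates this line from other Burkitt lymphomas or from normal B cells. The labels give the source as blood, the cell type as B-lymphoma and the treatment as DMSO; no source at hand states the dose or duration of DMSO. Nothing in the labels says whether the 3 libraries came from separate cultures, so the spread between them may be technical in part or in whole.

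Burkitt lymphoma arises from a germinal centre B cell, the cell type in which immunoglobulin genes are diversified, and its defining lesion places the MYC gene under immunoglobulin enhancers. A mature B cell is recognised by its antigen receptor (a surface immunoglobulin with the CD79A and CD79B signalling chains), by the transcription factor PAX5 that maintains B-cell identity, and by the machinery that presents antigen on MHC class II. MYC in turn is known for raising ribosome production, glycolysis and cell division.

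The values are whole numbers per gene, and they sum to 77961480, 110485145 and 80590210 in replicates 1, 2 and 3. Levels are given as CPM (1 CPM is 1 part in 1000000 of a library's sum), always in the order of replicates 1, 2 and 3, and as mean ± SD over n = 3 where one figure is given. CPM, its sums and its ranks describe how a library is composed. Levels of single genes are compared as a per-kb level, the CPM divided by the kilobases of annotated exon and rescaled to sum to 1000000 per library. The exon length joins the exons of all annotated transcripts of a gene and can exceed that of any single transcript. It was 9333 bases for PAX5, with 16 transcripts, and 1503 for CD79A, with 3. Per-kb levels of genes with many transcripts may thus be understated, and comparisons between genes are approximate. A gene was called expressed at 1 CPM or more in all 3 libraries (about 78.0, 110 and 80.6 in the table's own units), low when under 1 CPM in all 3, and mixed otherwise. Of 15436 listed genes, 9124 (59.1%) were expressed, 2192 were mixed and 4120 were low. Every count of expressed list members below is to be read beside this share of 59.1%. The lowest value in the table is 1, and 309 genes stood at exactly 1 in all 3 libraries, so a true 0 cannot be recognised. The whole range is shown in the plot of rank against level.

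**Figure D1:**
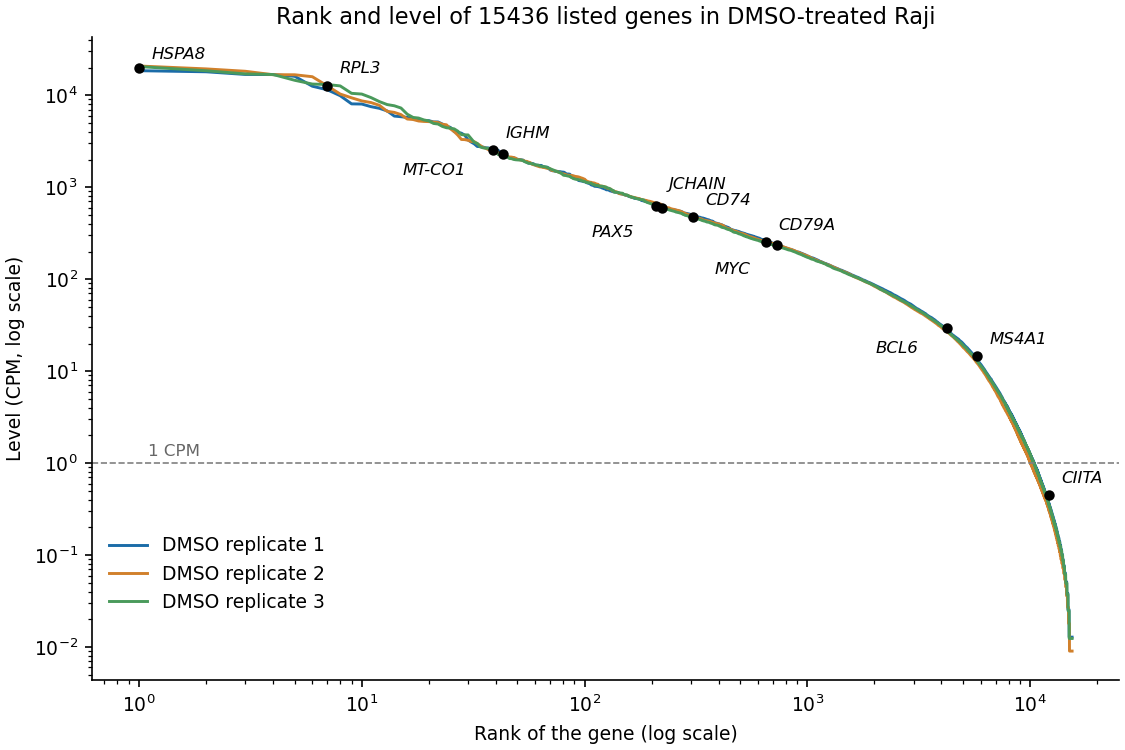
Rank (x axis, log scale) against level in CPM (y axis, log scale) for the 15436 listed genes, with each DMSO library ranked separately (coloured lines) and named genes marked at their mean level (black points). The lines of the 3 libraries lie almost on each other from the highest gene, HSPA8, to below the dashed line at 1 CPM, while B-cell genes are spread from IGHM near rank 39 to CIITA below 1 CPM.

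The 3 B-cell markers that check the label were expressed in every library. CD79A, the alpha signalling chain of the antigen receptor, measured 250.4, 253 and 251 CPM. This was one of the steadiest values of the data set, with a coefficient of variation (CV, the SD as a percent of the mean) of 0.627%. PAX5, the factor that holds B-cell identity, measured 1024, 423 and 343 CPM, highest in replicate 1 and about alike in the other libraries. MS4A1, which encodes the surface protein CD20, measured 14.1, 12.7 and 17 CPM. All 3 markers thus met the label, but at unequal per-kb levels, 643 for CD79A, 246 for PAX5 and 11.5 for MS4A1. On GRCh38 with GENCODE 29 coordinates, CD79A is annotated at chr19:41877120-41881372, PAX5 at chr9:36833275-37034185 and MS4A1 at chr11:60455752-60470760. No source at hand states whether the table holds all reads of a gene, and several genes that are abundant in most cells were listed low (GAPDH below), so a low level is a statement about the listed value.

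Few markers of other cell types had values, and these included expressed, mixed and low members. The low ones belonged to the NK-cell list (1) and the myeloid list (3). Of 20 T-cell markers, 3 had values, and CD247, the zeta chain of the T-cell receptor complex, was the expressed one, at 4.19, 4.63 and 3.80 CPM. LCK, a kinase best known from T cells, measured 16.3, 0.0905 and 12.9 CPM and was low in replicate 2 alone. TRBC2, a T-cell receptor constant segment, measured 0.962, 1.51 and 0.968 CPM, at or near the 1 CPM line in each library. The other 17 T-cell markers, the CD3 chains among them, were not analysed here. Neither of the 2 NK-cell markers with values (of 14) and none of the 4 myeloid markers with values (of 16) was expressed. Summed over their members, the NK-cell markers came to 1.32, 0.606 and 1.66 CPM and the myeloid markers to 1.72, 1.07 and 2.33 CPM. EPOR, the erythropoietin receptor, was the single erythroid gene with values (of 14) and measured 2.46, 1.64 and 15.3 CPM, highest in replicate 3. Of 18 epithelial and stromal markers, 3 had values, of which ACTA2, smooth muscle actin, at 7.72, 6.71 and 8.86 CPM and COL1A1, a collagen chain, at 3.93, 1.26 and 2.59 CPM were expressed. Of 12 markers of B-cell progenitors, 3 had values and 2 were expressed. BLNK, an adaptor that mature B cells also use, measured 45.3, 46.8 and 39 CPM, SOX4, a factor of early lymphoid cells, 2.62, 2.51 and 2.22 CPM and IL7R, the interleukin-7 receptor, 1.96, 0.00905 and 1.72 CPM. The other 9 were not analysed here.

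A small set of genes made up much of each library. The 10 highest genes held 13.6%, 14.7% and 14.3% of the 3 library sums. The 100 highest held 36.9% on average, 281 genes held 50% and 3156 held 90%. Chaperones and glycolytic enzymes led the list, followed by ribosomal proteins and the cytoskeleton. HSPA8, the constitutive cytosolic Hsp70 chaperone, was first at 18506, 20811 and 20528 CPM, and HSPD1, the mitochondrial Hsp60, was second at 18007, 19360.3 and 18475 CPM. ENO1 (enolase) and PKM (pyruvate kinase), both of late glycolysis, measured 16849, 18240.4 and 17080.1 CPM and 16789, 16712 and 16822 CPM. The remaining places were held by RPS2 (15518 ± 839 CPM), NCL (13240.4 ± 3418), RPL3 (12615 ± 61.2), ACTB (11370 ± 1932), TUBA1B (8311 ± 235) and EEF2 (8214 ± 412), which encode ribosomal proteins, nucleolin, beta-actin, an alpha-tubulin and the translocating elongation factor. Ranked by the per-kb level instead, RPS2 came first at 24717, then HSPD1 at 16849 and HSPA8 at 15804, and the top 10 also took in ACTG1 and RPL26. Tubulins, actins and ribosomal proteins have near-identical gene copies and pseudogenes, so how reads were divided among them is uncertain.

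By gene class, protein-coding genes held 97.1% of the library sums, long non-coding genes 1.53%, pseudogenes 0.781% and immunoglobulin segments 0.312%. By function, the cytosolic ribosomal proteins held 13 ± 0.347% (SD, n = 3), the chaperones 5.85 ± 0.146% and glycolysis 3.94 ± 0.0424%. The translation factors held 1.85 ± 0.168% and the 13 mRNAs of the mitochondrial genome 0.881 ± 0.0447%. The lists that name the cell were far smaller parts: 0.511 ± 0.0283% for B-cell transcription factors, 0.384 ± 0.0397% for immunoglobulin chains and 0.223 ± 0.0279% for B-cell surface genes. Weighted by length, the ribosomal proteins made up 17.5% and the mitochondrial mRNAs 4.08% of the summed per-kb level.

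Genes steady at a high level came from both the general and the B-cell side, and the promoters of 2 of them show how unlike these can be. The 10 steadiest genes of those expressed at a mean of 100 CPM or more were PKM, EIF2B1, VPS25, PSMD14, RPL3, XPO7, CD79A, VAPA, BPNT1 and ELMO1. PKM and CD79A are shown as the 250 bases before the RefSeq gene start (GRCh38.p14, gene strand, 5′ to 3′), each CpG in capitals. CD79A is at chr19:41877029-41877278 on the plus strand, PKM at chr15:72231191-72231440 on the minus strand. RefSeq and GENCODE starts differ for both: part of the CD79A stretch and all of the PKM stretch lie inside the spans that GENCODE 29 gives these genes.
CD79A: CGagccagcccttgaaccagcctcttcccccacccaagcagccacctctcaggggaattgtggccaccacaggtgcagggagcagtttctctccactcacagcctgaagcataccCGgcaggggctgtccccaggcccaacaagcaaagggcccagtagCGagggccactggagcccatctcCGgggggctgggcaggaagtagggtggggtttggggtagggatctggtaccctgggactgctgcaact
PKM: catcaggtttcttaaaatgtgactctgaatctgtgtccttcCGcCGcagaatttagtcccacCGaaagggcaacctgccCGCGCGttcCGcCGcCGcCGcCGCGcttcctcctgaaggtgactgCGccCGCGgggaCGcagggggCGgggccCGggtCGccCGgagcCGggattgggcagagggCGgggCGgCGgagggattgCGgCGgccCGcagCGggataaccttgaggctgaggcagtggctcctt
The stretch before CD79A held 4 CpG and that before PKM held 28. Over the full 300-base window of the RefSeq table (250 bases before to 50 after the start), the ratio of observed to expected CpG was 0.134 for CD79A and 0.984 for PKM, at GC contents of 63% and 68%.

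Promoter windows of expressed genes held more CpG than those of low genes, given here as a description with no test. A window was matched by symbol for 9096 of the 11164 listed protein-coding genes. The median CpG ratio was 0.862 for expressed, 0.817 for mixed and 0.749 for low genes, with 9.78%, 16.8% and 29.1% of windows under a ratio of 0.5. TATAAA was found on either strand in 4.83% of expressed and 10.2% of low genes (12.0% of all 27305 promoters in the table). GGGCGG, the core of the GC box, was found in 72.1% and 60% (44.6% of all), and CCGGAAG, an ETS-type sequence, in 22.2% and 13.5% (10.7% of all). Altogether 8 motifs were searched on both strands, and matches of different motifs may overlap. The other motifs were CCAAT of the Y box, the E-box CACGTG, the octamer ATGCAAAT, the cyclic AMP element TGACGTCA and the YY1-type AAGATGGCG. A match is a run of letters, not a bound site, and this look at promoters was chosen after the levels had been seen. The spread within each class is wide, as the plot of CpG content shows.

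**Figure D2:**
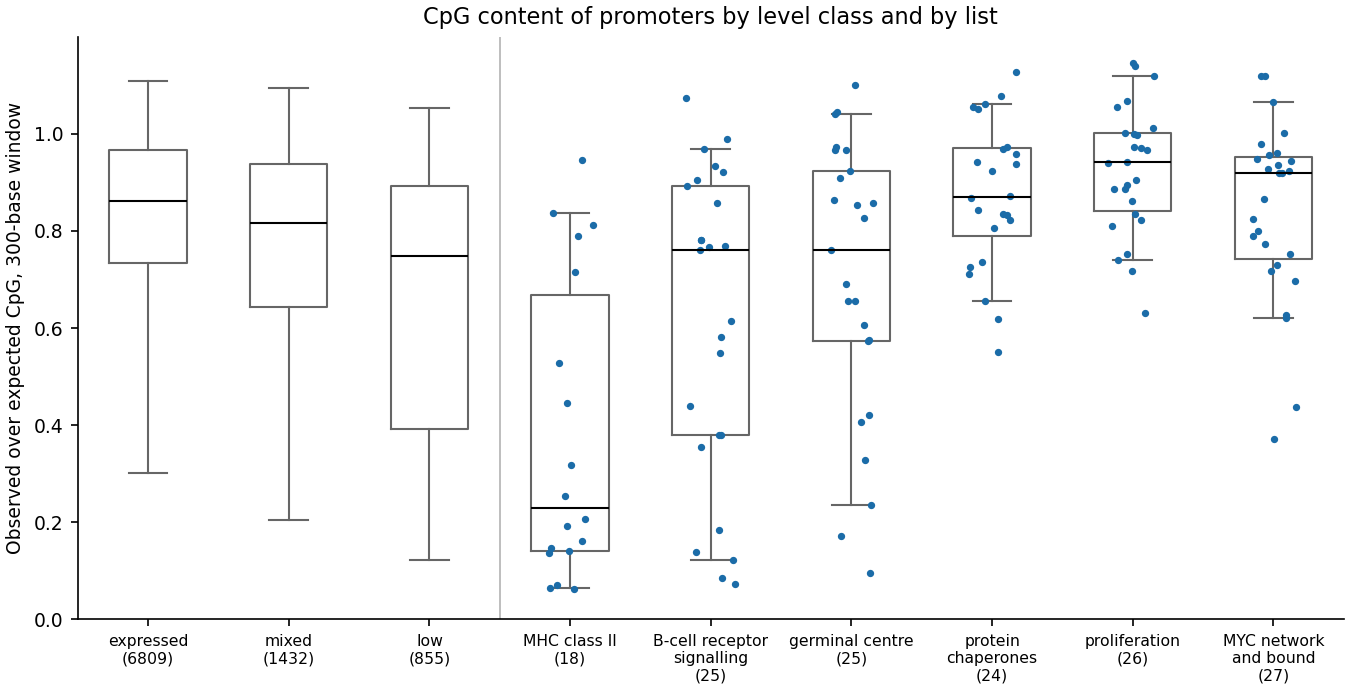
Observed over expected CpG in the 300-base RefSeq window around the gene start (y axis) for protein-coding genes by level class (left) and for 6 gene lists (right), with the number of genes in brackets. Boxes give the quartiles and median, whiskers the 5th to 95th percentile, blue points the single genes of each list; the MHC class II list has its median at 0.230, below the lower quartile of the expressed genes at 0.735.

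Immunoglobulin transcripts were led by the mu heavy chain and the kappa light chain. IGHM, the mu heavy chain, measured 2673, 2709 and 2151 CPM and had the highest per-kb level of the chain list, 5161. IGKC, the kappa constant region, measured 252, 227 and 225 CPM, and JCHAIN, the chain that joins secreted IgM into polymers, 587, 761 and 548 CPM. Of the lambda constant genes IGLC2 had the highest per-kb level, 135 compared with 1726 for IGKC, and measured 18.9, 13 and 16.9 CPM. IGLL5 was higher, at 214, 160 and 166 CPM and a per-kb level of 518. Its annotated span (chr22:22887780-22896107) includes that of the lambda constant gene IGLC1 (chr22:22895375-22895834). The lambda constant genes alone may therefore understate the lambda signal. IGHG1, the gamma-1 heavy chain, was expressed at 174, 177 and 195 CPM and IGHD, the delta chain, at 14.1, 17.3 and 12.7 CPM. In all, 12 of the 13 chain genes with values were expressed, IGHA1 being the exception at 1.68, 0.136 and 0.174 CPM. None was unsteady, which here means at least 10-fold between the highest and lowest library after adding 0.5 CPM, a line that 8.28% of the 11316 genes reaching 1 CPM in any library crossed. Every count of unsteady list members below is to be read beside this share of 8.28%. The gamma genes and the lambda genes each share long near-identical stretches, so their division among members is uncertain.

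A pair of near-identical segments dominated the kappa variable genes. Among 12 kappa variable segments with values, IGKV3-20 measured 56.6, 55.7 and 51.6 CPM and its near-copy IGKV3D-20 measured 24.7, 25.1 and 22.1 CPM. These 2 held 98.3% of the summed kappa variable CPM, and the other 10 segments were each under 1 CPM in every library. On the heavy side IGHV5-78 was the expressed one of 8 at 4.46, 5.41 and 4.96 CPM, and on the lambda side IGLV6-57 of 3 at 2.87, 2.38 and 1.96 CPM. The GENCODE annotation lists IGHV5-78 as a pseudogene. All 8 heavy variable segments together took 7.19 CPM of the libraries. Variable segments without a row were not analysed here.

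Surface proteins of the mature B cell were present almost throughout. Of 27 such genes with values, 25 were expressed, beside 59.1% of all listed genes. None was unsteady, beside 8.28% of the genes reaching 1 CPM in any library. The highest per-kb level was that of CD79B, the beta signalling chain, at 1252, with 567, 603 and 867 CPM in the 3 libraries. CD53 and CD48, surface proteins of leukocytes in general, measured 243, 187 and 222 CPM and 265, 222 and 268 CPM. CR2, the complement receptor that Epstein-Barr virus uses for entry, measured 24.3, 37.7 and 36.3 CPM. CD27, a receptor of memory and germinal centre B cells, measured 95.3, 113 and 92.6 CPM, and CD83, an activation marker, 148, 111 and 108 CPM. CD22, an inhibitory lectin, was listed at 1.53, 4.05 and 1.87 CPM. CD38, an ectoenzyme usually prominent on germinal centre B cells, was low at 0.321, 0.615 and 0.534 CPM in the listed values. TNFRSF13B, the receptor TACI, crossed 1 CPM in 2 of 3 libraries (0.770, 1.58 and 3.31 CPM). CD24, FCRL1 and FCRL2 of the same list were not analysed here.

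**Figure D3:**
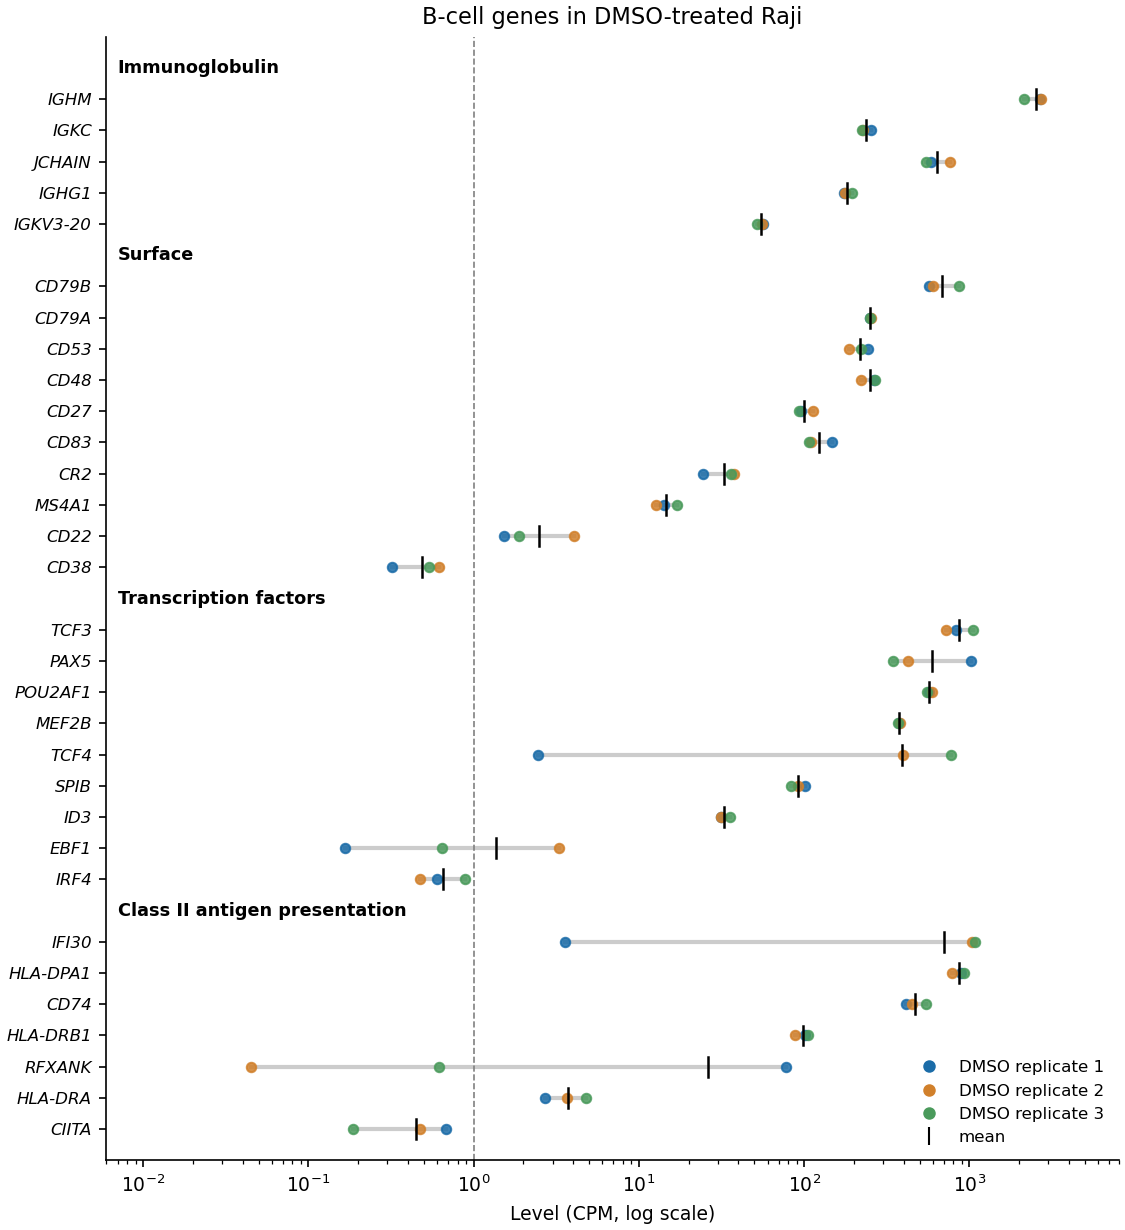
Level in CPM (x axis, log scale) of 31 B-cell genes in the 3 DMSO libraries (coloured points), with the mean (black tick) and the range (grey bar); the dashed line is 1 CPM. CD79A, MEF2B and POU2AF1 have nearly coincident points, whereas TCF4, IFI30 and RFXANK each have a library far from the others.

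The transcription factors of B-cell identity were expressed in 26 of 30 cases. Per kb, MEF2B, a factor of germinal centre B cells, was highest at 779, with 375, 382 and 367 CPM. TCF3, which encodes the E2A proteins that start the B-cell programme, measured 828, 720.4 and 1046 CPM, and POU2AF1, the B-cell co-activator of octamer factors, 565, 597 and 556 CPM. POU2AF1 was the more even of the pair. RUNX3, a Runt-domain factor, measured 254, 242 and 239 CPM, IKZF3, the Aiolos zinc-finger factor, 339, 337 and 311 CPM, and SPIB, an ETS factor of B cells, 101, 91.5 and 82.7 CPM. The inhibitors and relatives of E2A were lower or uneven. ID3, an inhibitor of E2A and a frequent target of mutation in Burkitt lymphoma, measured 31.5, 31.3 and 35.5 CPM. TCF4, the E2-2 factor, measured 2.45, 398 and 777 CPM, and ID2, another such inhibitor, 0.667, 0.163 and 14.4 CPM, each with a library far apart from the others. EBF1, a pioneer factor of the B lineage, was mixed at 0.167, 3.29 and 0.645 CPM, and MEF2C was mixed at 6.21, 0.0724 and 0.223 CPM with replicate 1 alone above 1 CPM. IRF4, a factor of plasma cells and activated B cells, was the low member at 0.603, 0.471 and 0.881 CPM. TCF4, ID2 and MEF2C were the 3 unsteady members of 29 that reached 1 CPM.

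Downstream of the antigen receptor, 27 of 30 signalling genes were expressed, beside 59.1% of all listed genes. CSK and GRB2 led by the per-kb level (727 and 726): CSK, the kinase that restrains Src-family kinases, measured 841, 886 and 865 CPM, and GRB2, an adaptor, 911, 878 and 883 CPM. RAC2, a GTPase of blood cells, measured 272, 243 and 275 CPM. PIK3CD, the leukocyte catalytic subunit of PI 3-kinase, measured 681, 557 and 626 CPM, and its per-kb level of 377 compared with 0.883 for its relative PIK3CG. The kinases next to the receptor were lower per kb, at 60.5 for SYK, 41.1 for LYN and 14 for BTK. In CPM, LYN measured 59.1, 69 and 70.6, SYK 36.8, 163 and 45.8 with replicate 2 above the others, and BTK 13.1, 12.5 and 24.6. The adaptor BLNK measured 45.3, 46.8 and 39 CPM. MALT1 and BCL10, which bind each other on the way from the receptor to NF-kB, were both expressed, at 66.6 ± 5.50 and 14.9 ± 0.640 CPM. BLK, a Src-family kinase of B cells, was the 1 unsteady member, at 11.1, 0.136 and 12.8 CPM. PTPRC, which encodes the CD45 phosphatase, was listed at 1.95, 0.00905 and 1.59 CPM.

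Antigen presentation by MHC class II was expressed in 19 of 21 genes. The alpha and beta chains of HLA-DP measured 889.5, 782 and 923 CPM (HLA-DPA1) and 149, 148 and 199 CPM (HLA-DPB1), the invariant chain CD74 413, 449 and 546 CPM and HLA-DRB1 102, 87.6 and 106 CPM. HLA-DRA, the partner of HLA-DRB1, was listed at 2.71, 3.66 and 4.80 CPM, a per-kb level of 11.2 against 308 for HLA-DRB1. HLA genes are similar to each other and vary between people and lines, so levels within the family are uncertain. CIITA, the master co-activator of class II genes, was under 1 CPM in every library, at 0.680, 0.471 and 0.186. RFX5, a subunit of the factor that binds class II promoters, measured 198, 274 and 225 CPM, and its partner RFXAP 12.9, 12.5 and 11.7 CPM. The other partner, RFXANK, was unsteady: it measured 77.9, 0.0453 and 0.620 CPM, above 1 CPM in replicate 1 alone. IFI30, a lysosomal thiol reductase that prepares antigens, was unsteady as well, at 3.55, 1037 and 1076 CPM, low in replicate 1 and above 1000 CPM in the other libraries.

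The windows of class II genes held less CpG and more often CCAAT than those of expressed genes at large, again as a description with no test. Low CpG was not limited to class II genes, the ratio of CD79A being 0.134. A window was matched for 18 of the 21, with a median CpG ratio of 0.230, and 12 of 18 lay under 0.5. CCAAT or its reverse complement ATTGG, the core of the Y box known from class II promoters, was found in 15 of 18 (83.3%), against 38.7% of expressed protein-coding genes and 35.7% of all promoters. HLA-DPA1, the member with the highest mean CPM, had neither sequence in its window and a CpG ratio of 0.837. The 250 bases before 3 other well expressed members, each with a match, are shown with CCAAT and ATTGG in capitals (RefSeq, GRCh38.p14, gene strand, 5′ to 3′). They are chr6:32589849-32590098 (minus strand) for HLA-DRB1, chr6:33075740-33075989 (plus strand) for HLA-DPB1 and chr5:150412911-150413160 (minus strand) for CD74.
HLA-DRB1: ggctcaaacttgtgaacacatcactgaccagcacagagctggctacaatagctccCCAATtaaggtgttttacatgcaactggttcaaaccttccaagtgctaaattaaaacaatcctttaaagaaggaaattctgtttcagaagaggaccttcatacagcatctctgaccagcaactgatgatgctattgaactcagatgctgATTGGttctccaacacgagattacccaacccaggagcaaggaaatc
HLA-DPB1: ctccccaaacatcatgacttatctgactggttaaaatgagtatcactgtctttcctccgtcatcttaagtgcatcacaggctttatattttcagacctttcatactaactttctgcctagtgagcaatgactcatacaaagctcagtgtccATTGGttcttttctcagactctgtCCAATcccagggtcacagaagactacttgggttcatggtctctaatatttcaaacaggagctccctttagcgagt
CD74: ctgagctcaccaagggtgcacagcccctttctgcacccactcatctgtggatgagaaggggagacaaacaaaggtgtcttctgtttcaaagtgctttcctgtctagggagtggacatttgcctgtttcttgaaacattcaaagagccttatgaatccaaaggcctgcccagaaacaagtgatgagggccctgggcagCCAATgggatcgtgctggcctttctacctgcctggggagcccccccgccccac
In HLA-DRB1 the match nearest to the start began 46 bases before it, in HLA-DPB1 75 bases and in CD74 53 bases. For the B-cell surface genes 19 of 27 (70.4%) had a window, too few for a summary, which is void for that reason.

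Most genes of antigen presentation by MHC class I were expressed. Of 21 genes, 16 were expressed, beside 59.1% of all listed genes, and 5 were mixed. Of the 21, 2 were unsteady, beside 8.28% unsteady over the genes reaching 1 CPM in any library. PSMB8, a subunit of the immunoproteasome, measured 294, 328 and 344 CPM and TAP1, a chain of the peptide transporter, 205, 198 and 203 CPM, both steady. HLA-C measured 113, 333 and 271 CPM and HLA-E 121, 109 and 124 CPM. B2M, the light chain shared by all class I molecules, measured 77, 224 and 60.9 CPM with replicate 2 above the others. HLA-B was listed at 13.6, 12.9 and 15.7 CPM. HLA-F, one of the unsteady members, measured 28.4, 0.299 and 0.174 CPM, highest in replicate 1.

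The germinal centre programme was expressed in 23 of 29 genes. UNG, a glycosylase that removes uracil from DNA, measured 221, 198 and 181 CPM. GCSAM, a signalling protein of germinal centre lymphocytes, measured 184, 196 and 185 CPM. Of the genes that hold cells in the follicle, several were expressed: S1PR2, a sphingosine phosphate receptor, at 92.2, 102 and 99.6 CPM, GNA13, its G protein, at 135, 139 and 130.1 CPM, P2RY8 at 56.8, 63 and 58.1 CPM, and CXCR4, the chemokine receptor of the dark zone, at 199, 247 and 245 CPM. ARHGEF1, the exchange factor that acts on RHOA downstream of GNA13, was mixed at 0.552, 0.0543 and 3.13 CPM. BCL6, the repressor that defines the germinal centre, measured 31.3, 38.5 and 18.1 CPM. HDAC1 had the highest per-kb level of the list (625) at 652, 637 and 643 CPM, as a deacetylase used in most cells. EZH2, the Polycomb methyltransferase, measured 8.45, 4.79 and 40.2 CPM, highest in replicate 3, and LMO2 measured 5.68, 2.65 and 3.54 CPM. MME, which encodes the germinal centre marker CD10, was mixed at 0.410, 3.52 and 0.558 CPM, and SERPINA9 was low at 0.654, 0.670 and 0.534 CPM. ELL3 (15.4, 0.715 and 1.80 CPM) and LPP (1.17, 0.815 and 30.7 CPM) were the unsteady members.

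Genes recurrently mutated in Burkitt lymphoma were expressed in 22 of 24 cases, beside 59.1% of all listed genes. Of the 24, 6 were unsteady, beside 8.28% of the genes reaching 1 CPM in any library. MYC measured 44.8, 416 and 251 CPM, lowest in replicate 1, a 9.18-fold range that stops short of the 10-fold line. DDX3X, an RNA helicase, measured 118, 3130.2 and 884 CPM, and CCND3, cyclin D3, 884, 773 and 0.397 CPM. SMARCA4, the ATPase of the BAF remodelling complex, measured 91, 42.8 and 1028 CPM and was highest in replicate 3. RHOA (7.75, 261 and 15.4 CPM) and CHD8 (27.3, 338 and 11 CPM) were highest in replicate 2, and FBXO11, a ubiquitin ligase subunit that targets BCL6, was lowest in replicate 1 (0.782, 12.5 and 8.56 CPM). The high and the low library thus differed from gene to gene. Others of the list were steady: USP7, a deubiquitinase, at 728, 852 and 735 CPM, and PCBP1, an RNA-binding protein, at 159.8, 153 and 152 CPM. CDKN2A, the locus of p16 and ARF, measured 271, 205 and 249 CPM. The table gives 1 value per gene, and values per transcript were not analysed here.

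**Figure D4:**
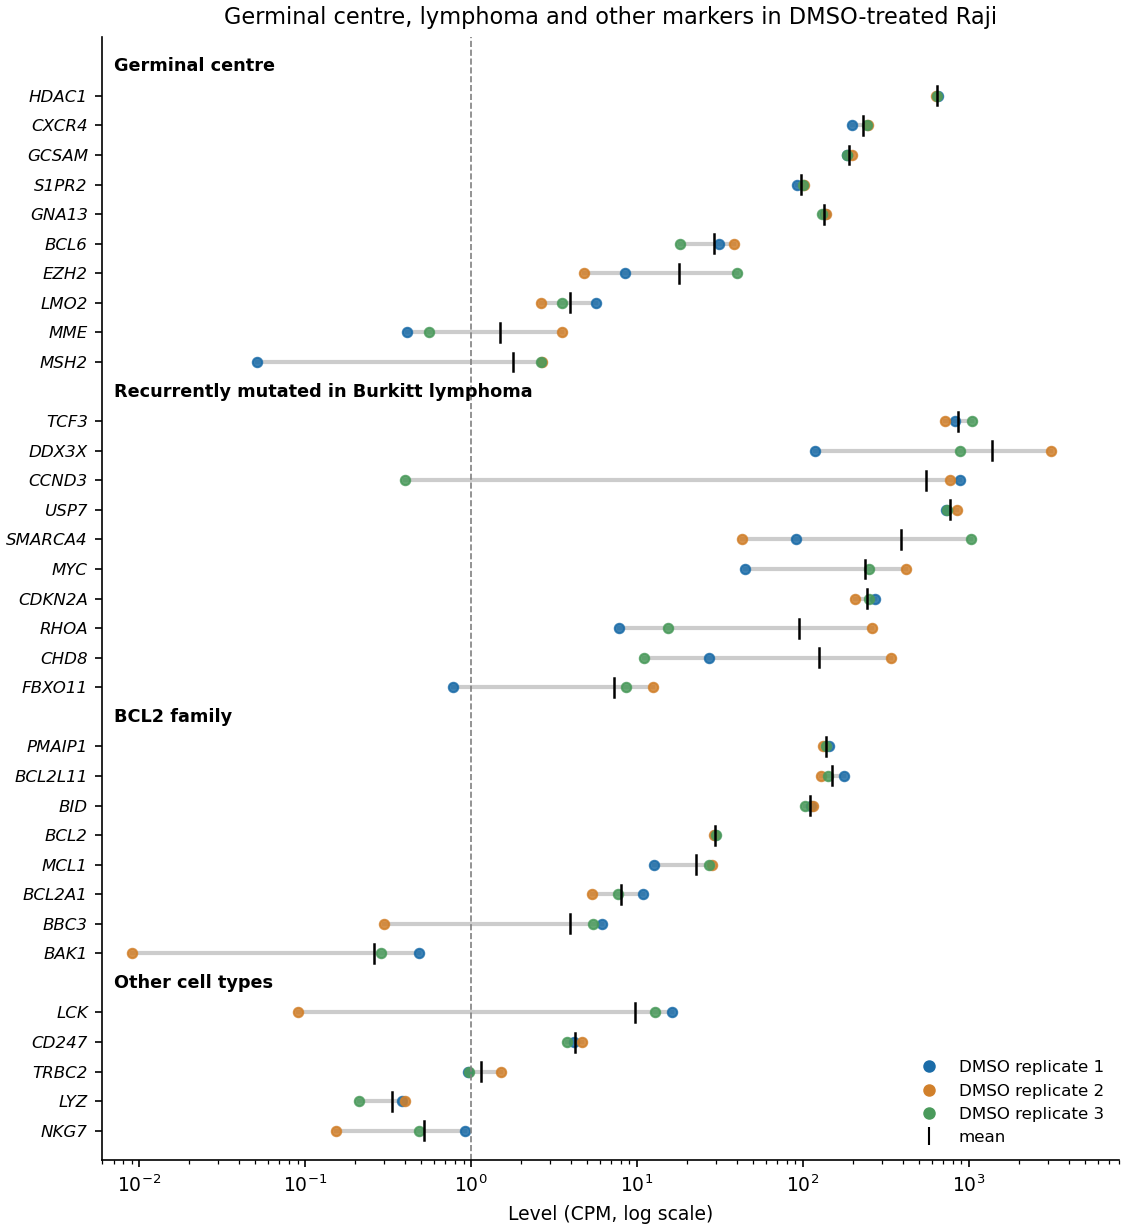
Level in CPM (x axis, log scale) of germinal centre genes, genes recurrently mutated in Burkitt lymphoma, BCL2 family genes and markers of other cell types in the 3 DMSO libraries (coloured points), with the mean (black tick) and the range (grey bar); the dashed line is 1 CPM. GCSAM, GNA13 and BCL2 have close points, while CCND3 stands at 884 and 773 CPM in replicates 1 and 2 and at 0.397 CPM in replicate 3.

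Genes of the BCL2 family, which holds both inhibitors and promoters of cell death, were expressed in 14 of 17 cases. Over all listed genes the expressed share was 59.1%. None of the family was unsteady, beside 8.28% of the genes reaching 1 CPM in any library. PMAIP1, which encodes the pro-apoptotic NOXA, had the highest per-kb level (236) and measured 144, 132 and 137 CPM, followed per kb by BID (95.1) and BCL2L11 (85.8), the gene of BIM. BCL2 itself was among the steadiest values at 29.6, 29.3 and 29.8 CPM. MCL1 measured 12.6, 28.4 and 27.2 CPM, lowest in replicate 1, and BCL2A1, an NF-kB target, 10.9, 5.38 and 7.71 CPM. BAK1, a pore-forming effector, was the low member at 0.487, 0.00905 and 0.285 CPM, while BAX, its relative, measured 9.13, 5.84 and 11.8 CPM.

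Of genes linked to NF-kB and to Epstein-Barr virus latency, 22 of 28 were expressed, beside 59.1% of all listed genes. CCL3, a chemokine, measured 129, 40 and 98.8 CPM, and RELA, the p65 subunit, 348, 316 and 276 CPM. EBI3, a cytokine subunit first found in virus-infected B cells, measured 35.8, 20.8 and 37.8 CPM, and CCR7, also induced by the virus, 39, 21.4 and 43.7 CPM. Replicate 2 was the lowest library for CCL3, EBI3, CCR7 and IL10 (18, 8.92 and 24.2 CPM). Known targets of NF-kB were uneven: NFKBIA, its feedback inhibitor, measured 71.3, 84.2 and 62.6 CPM, whereas TNFAIP3, the inhibitor A20, was low at 0.333, 0.181 and 0.0124 CPM and ICAM1, an adhesion molecule, at 0.269, 0.199 and 0.323 CPM. LTB, a membrane lymphotoxin (0.115, 39 and 25.8 CPM), and CFLAR, an inhibitor of death receptors (1.23, 22.1 and 23.2 CPM), were unsteady, each low in replicate 1. Viral transcripts were not analysed here.

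Plasma cell genes were expressed in 12 of 17 cases, beside 59.1% of all listed genes, mainly those of the secretory pathway. MZB1, an endoplasmic reticulum chaperone of B cells, measured 300.4, 223 and 224 CPM, TXNDC5, a disulfide isomerase, 332, 353 and 333 CPM and PDIA4 229.9, 221 and 197 CPM. XBP1, the factor of the unfolded protein response, measured 114, 44.2 and 94.8 CPM. PRDM1, which encodes Blimp-1 and sets the plasma cell fate, was above 1 CPM in replicate 1 alone (1.77, 0.534 and 0.745 CPM). HSP90B1, a chaperone of the same compartment, was the unsteady member at 18, 1.12 and 1.08 CPM. Of marks used for other lymphomas, 7 of 18 had values. TCL1A, an AKT co-activator of B cells, led them by the per-kb level (332) at 182, 111 and 288 CPM, TERT, the catalytic subunit of telomerase, was mixed at 0.834, 1.75 and 0.732 CPM, and the ligand genes CD274 and PDCD1LG2 were low (0.0898, 0.181 and 0.186 and 0.141, 0.0453 and 0.0620 CPM). The other 11, among them CCND1, SOX11, CD5 and CD44, were not analysed here. All 4 complement genes with values were expressed, and the regulator CD46 was highest per kb, with 68.4, 79.6 and 109 CPM.

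Genes of DNA replication and mitosis were expressed almost throughout. Of 32 proliferation genes, 28 were expressed. PCNA, the sliding clamp of replication, measured 435, 414 and 457 CPM, MCM7, a helicase subunit, 1151, 1412 and 1317 CPM, TYMS, thymidylate synthase, 429, 429 and 462 CPM and MKI67, the Ki-67 antigen, 395, 432 and 337 CPM. These 4 lay within a narrow range between libraries. CDC20 (214, 204 and 185 CPM), CCNB2 (194, 174 and 184 CPM) and BUB1 (299, 293 and 314 CPM), all of mitosis, did so too. Unsteady were 4 of the 32, beside 8.28% of the genes reaching 1 CPM in any library. They were CCND3, given above, RRM1, a ribonucleotide reductase subunit, at 0.616, 521 and 0.608 CPM, AURKA, a mitotic kinase, at 88.4, 6.05 and 23.2 CPM, and MCM2 at 1.03, 0.615 and 38.2 CPM. CCAAT or ATTGG was found in 18 of the 26 matched promoter windows of the list (69.2%). The share was 38.7% in expressed protein-coding genes and 35.7% in all promoters, given with no test.

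Partners and bound genes of MYC were expressed in 26 of 30 cases. NCL, nucleolin, was highest by the per-kb level at 7342 and measured 9895, 16728 and 13099 CPM. FBL, the methyltransferase of the nucleolus, measured 1424, 1354 and 1592 CPM, ODC1, the first enzyme of polyamine synthesis, 936, 837 and 755 CPM and APEX1, a DNA repair endonuclease, 405, 461 and 417 CPM. MAX, the obligate partner of MYC, was listed at 1.78, 2.83 and 3.25 CPM, and MXI1, a competitor for MAX, at 289.7, 388 and 207 CPM. NPM1, nucleophosmin, measured 658, 30.3 and 29.6 CPM, far higher in replicate 1, and TFRC, the transferrin receptor, 637, 0.290 and 616 CPM, low in replicate 2 alone. These were the 2 unsteady members. CACGTG, the E-box sequence MYC and MAX are known to bind, was found in 10 of 27 matched windows (37.0%). It was found in 10.8% of expressed protein-coding genes and in 7.43% of all promoters. The list was made of known MYC-bound genes, so this is a description of the list.

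Glycolysis was expressed in 15 of 19 genes, beside 59.1% of all listed genes, and was led by its late steps. LDHB, a lactate dehydrogenase subunit, measured 2014, 1877 and 1939 CPM and PGAM1, phosphoglycerate mutase, 549.9, 561 and 562 CPM, with ENO1 and PKM as given above. LDHA, the other subunit, was listed at 43.8, 47.3 and 37.2 CPM, a per-kb level of 26.5 against 2503 for LDHB. GAPDH was listed at 27, 7.74 and 14.4 CPM, although it is known as one of the most abundant mRNAs of most cells, and ALDOA at 1.89, 2.57 and 2.02 CPM. PGK1 measured 579, 0.0453 and 599.9 CPM and HK1, hexokinase, 240.3, 261 and 1.09 CPM, each with a single low library, replicate 2 for the former and replicate 3 for the latter.

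Chaperones were expressed in 24 of 26 cases. After HSPD1 and HSPA8, the highest per-kb levels were those of CCT3 (2788), a subunit of the cytosolic folding ring, and HSP90AA1 (2786), the Hsp90 alpha form. HSPE1, the co-chaperonin that caps HSPD1, was listed at 27.3, 24.7 and 22.6 CPM. Subunits of the CCT ring work in one complex, yet per kb they spanned 0.748 for CCT7 to 2788 for CCT3. CCT3 measured 2775, 3309 and 2659.8 CPM and CCT7 0.398, 0.371 and 1.34 CPM. CCT2 measured 28.2, 44.8 and 2.80 CPM, low in replicate 3, and CCT8 88, 0.905 and 1.64 CPM, high in replicate 1. CCT2, CCT8 and HSP90B1 were the 3 unsteady members.

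Of the cytosolic ribosomal proteins, 83 of 84 were expressed, the exception being RPS4X at 0.257, 0.253 and 0.372 CPM, and 3 were unsteady. RPS2 measured 16084, 15914 and 14554 CPM, RPL3 12545, 12656 and 12644 CPM and RPL26 5574, 5520.2 and 5395 CPM. RPS20 (9.02, 2503 and 2183 CPM) and RPS9 (12.1, 141 and 136 CPM) were low in replicate 1, and RPS27A (21.1, 1.48 and 15.1 CPM) in replicate 2. Though these proteins are needed in equal number, their mean per-kb levels differed widely, for example 4.65 for RPL8 and 24717 for RPS2. Translation factors were expressed in 32 of 34 cases, with EEF1G (2684, 3295 and 2648 CPM) and EIF3G (1021, 1113 and 978 CPM) next to EEF2 by the per-kb level. EIF4G1 (1504, 3.67 and 94.7 CPM), EIF3B (817, 817 and 71.8 CPM) and EIF5B (3.04, 7.30 and 305 CPM) were unsteady. The HMG chromatin proteins, which bend or loosen DNA, were expressed in 8 of 8 cases with none unsteady, led by HMGA1 at 1332, 797 and 1221 CPM and HMGN1 at 2197, 2317 and 2047 CPM.

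The 13 mitochondrial mRNAs were all expressed and all steady. MT-CO2 and MT-CO1, subunits of cytochrome oxidase, had the highest per-kb levels (6312 and 5661) and measured 1170.5, 1079 and 1122 CPM and 2181, 2416 and 2218 CPM. MT-ND6, the one mRNA of the light strand, was lowest per kb at 850.1, with 106, 127 and 115 CPM. The median CV of the 13 was 5.54%, below the median of 14.3% over all expressed genes. Each of the 13 has a single annotated transcript. Over all expressed genes with 1 annotated transcript the median CV was 8.10%. By median level it was 8.58% from 100 to 1000 CPM and 8.17% at 1000 CPM or more.

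Common reference genes were among the less steady ones. Of 19, 16 were expressed, beside 59.1% of all listed genes. Of the same 19, 5 were unsteady, beside 8.28% of the genes reaching 1 CPM in any library. HPRT1, a purine salvage enzyme, was steady at 89.8, 91.3 and 88.3 CPM, as was PPIB, a cyclophilin, at 44.4, 48 and 44.4 CPM. TUBB, a beta-tubulin, measured 25.4, 10.1 and 10308 CPM and was far higher in replicate 3. SDHA, a subunit of succinate dehydrogenase, measured 134, 0.154 and 0.0620 CPM and was far higher in replicate 1. Both were unsteady, as were PGK1 and TFRC, given above.

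The spread between replicates differed widely between genes. The CV of expressed genes had a median of 14.3% and quartiles of 6.71% and 33.2%. The biological coefficient of variation (the square root of the common dispersion that edgeR estimates over the 3 libraries) was 0.436 over the expressed genes. That set leaves out every gene under 1 CPM in any library, 646 unsteady genes among them. Over all listed genes it was 0.660. Of the 11316 genes reaching 1 CPM in any library, 3625 (32%) differed at least 2-fold between the highest and lowest library after adding 0.5 CPM. Of the same genes, 937 (8.28%) were unsteady, 172 of them at least 100-fold apart and 9 at least 1000-fold. Just outside the 10-fold line stood SRD5A1 and PIGB at 9.98-fold, and just inside ILDR2 and HSF1 at 10.02-fold and 10.04-fold. Of the 937, 905 were protein-coding, 433 had 1 library high above the others and 504 had 1 library low. No single library accounted for them: the lone high library was replicate 1, 2 or 3 in 171, 107 and 155 genes, and the lone low one in 155, 204 and 145. A chi-square test of the values over genes gave 942 to 1091 per degree of freedom for the 3 pairs, far more than sampling noise, and each library was counted once. Over the 1017 genes with 1 annotated transcript it gave 50.8 to 72.8.

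The least steady genes at a mean of 100 CPM or more were common genes. ACTG1, gamma-actin, measured 0.0128, 10314 and 10498 CPM, which is a value of 1 in replicate 1. PPP1CA, the catalytic subunit of protein phosphatase 1, measured 0.0641, 0.0453 and 1362 CPM. SF3B1, a splicing factor, measured 937, 0.697 and 0.0248 CPM, with replicate 1 the high library. TAGLN2, a transgelin, measured 0.372, 1308 and 0.335 CPM, and NPEPPS, an aminopeptidase, 0.231, 5.17 and 1124 CPM. SUPT5H, a transcription elongation factor (599.7, 759 and 0.136 CPM), was low in replicate 3, and SEM1, a proteasome subunit (0.218, 739 and 1.24 CPM), was high in replicate 2. The last 3 of the 10 were PGK1 and CCND3, given above, and ENSG00000243004, an annotated sense-overlapping transcript without a symbol in the tables used (522, 0.0815 and 0.0124 CPM).

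Unsteady genes were unevenly spread over gene structure. They made up 0.787% of genes with 1 annotated transcript, 2.84% with 2 to 3, 7.82% with 4 to 10 and 13.2% with more than 10. By median level they made up 10.1% under 10 CPM, 7.39% from 10 to 100, 5.30% from 100 to 1000 and 4.20% (5 of 119 genes) above. At 10 to 100 CPM the share was 1.73% with 1 to 3 transcripts and 12.3% with more than 10, so the order by transcripts held within that level. Pearson's r between libraries on log2(CPM + 0.5), across genes that share library and depth, was 0.963 to 0.967 over the 1017 genes with 1 transcript and 0.776 to 0.804 over the 3711 with more than 10. Over all 11316 genes it was 0.841 to 0.853, and over the 10379 that were not unsteady 0.952 to 0.954. The latter genes were selected by their agreement between these same libraries, so a higher r was fixed by that choice. The part that transcript assignment or counting played in this was not tested.

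**Figure D5:**
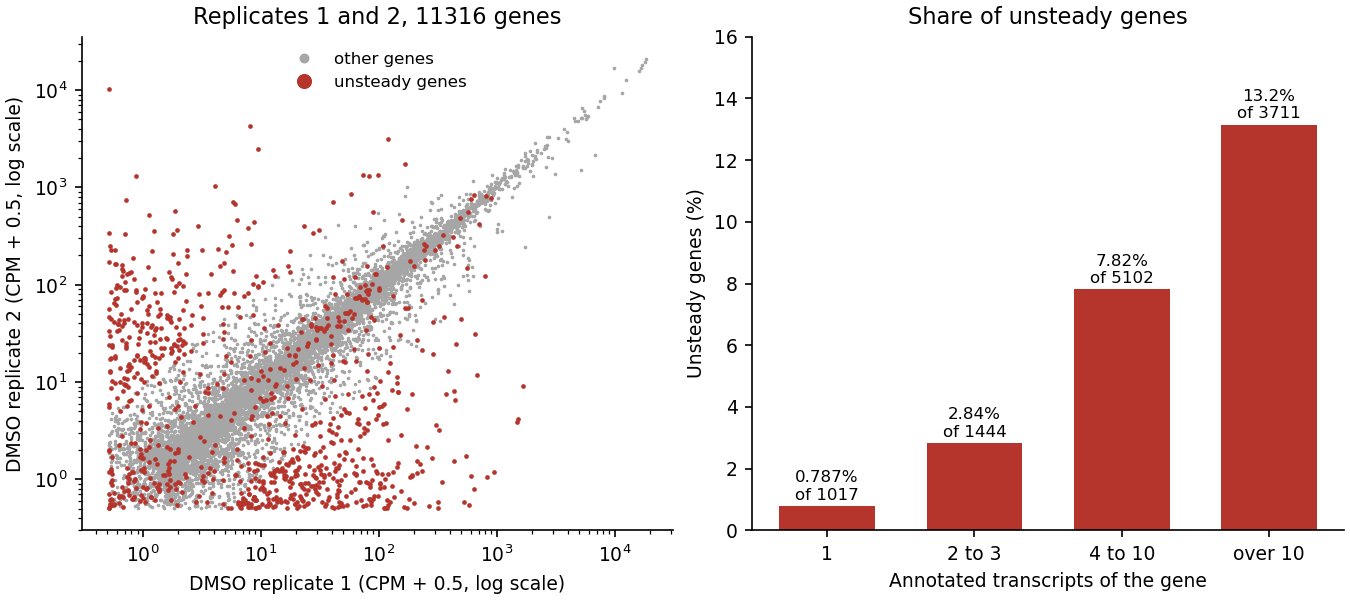
Left, CPM + 0.5 of 11316 genes in DMSO replicate 1 (x axis) against replicate 2 (y axis), both on log scales, with genes at least 10-fold apart between any 2 of the 3 libraries in red. Right, percent of genes that were unsteady (y axis) by the number of annotated transcripts (x axis), with the number of genes above each bar; the share goes from 0.787% with 1 transcript to 13.2% with over 10.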

How the data were processed

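RNA was measured in 3 libraries of DMSO-treated Raji cells, made with a TruSeq stranded mRNA kit per the labels' protocols. The authors' deposited table holds 1 value per gene and library and calls it CPM, but the values are whole numbers whose sums differ between libraries. These deposited values were therefore handled in the unit of expected counts, which the authors made with tools among FastQC, Trim Galore, STAR and DESeq2 on GRCh38, per the submitters' processing notes. How reads were counted, on which annotation and by strand or not, is stated in no source at hand, so overlapping or antisense genes cannot be told apart.

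The 6 other columns of the table were not used. Gene IDs were matched to names (15393 of 15436) and to GENCODE 29 (15272) for exon lengths, transcripts and classes. CPM, per-kb levels, SDs and ratios were computed with pandas 2.3.3 and the dispersion with edgeR 4.0.16, after a check on simulated data. The simulated spread was set well below that of the real libraries, so the check gives no error rate for the unsteady calls here. A pseudocount of 0.5 CPM entered ratios and log2 values. Promoters came from RefSeq (GRCh38.p14); genes with several windows used the first. One group is described, so no test between groups was run; library pairs were compared by chi-square to look for repeats.

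Named genes were the 3 markers, the 10 highest and 10 steadiest and least steady at 100 CPM or more, the 4 highest expressed members per kb and every unsteady member of 28 lists, expressed members of lists of other cell types, and a fixed set; other named members were chosen after their values were seen. Some members are not reported here. The members and lists were chosen with earlier results of these data known. Alternatives changed the CPM minimum, scaling (TMM, median-of-ratios), length weighting and fold line, and left out each library.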

Additional observations from a re-analysis of the deposited data

How the results depend on the processing

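Scaling by TMM or by median-of-ratios factors (0.971 to 1.03) left the counts of expressed, low, mixed and unsteady genes and the number of genes holding 50% within 1.5 times. Under both scalings the median CV and the biological coefficient of variation moved by less than an SD. That SD was taken over the 3 estimates made with 1 library left out each. With a minimum of 5 CPM, 7022 genes were low and the median CV was 10.6%. Leaving out 1 library each gave 1404 to 1538 mixed genes, 516 to 562 unsteady genes, a median CV of 10.6 to 12.1% and a biological coefficient of variation of 0.426 to 0.437; with 2 libraries there are fewer chances to differ. A 5-fold line called 1557 genes unsteady and a 20-fold line 602. Ranked per kb, the 10 highest genes held 12.4% and the 100 highest 34.3%, and 185 genes held 50%. Weighted per kb, ribosomal proteins held 17.5% and mitochondrial mRNAs 4.08%. Without the unsteady genes, the 10 highest held 15.2%, the 100 highest 38.4%, ribosomal proteins 13.8% and mitochondrial mRNAs 0.941%. The biological coefficient of variation was then 0.333, a fall fixed by leaving out genes for their spread. Over all listed genes, with no filter, it was 0.660. The removal of unsteady genes from the shares was added after the data had been seen. The count of expressed members moved by over 1.5 times in 4 of 28 lists at 5 CPM (T-cell, erythroid and platelet, epithelial and stromal, and progenitor markers, to 0, 0, 1 and 1) and in 2 lists at 0.5 CPM (T-cell markers to 2, other lymphoma genes to 5). Without replicate 2 the count of expressed T-cell markers was 2. No paired analysis was possible because one group is described and no result comes from a test between groups.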

Other observations

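Long non-coding RNAs, a class chosen after its values were seen, were few but included one very high gene. SNHG29, a host gene of small nucleolar RNAs, measured 7520.1, 7774 and 7689 CPM and ranked 11 of all listed genes by CPM. ZFAS1 and SNHG16, other such host genes, measured 754, 773 and 751 CPM and 213, 252 and 156 CPM, and SNHG17 measured 1002, 377 and 860.4 CPM. DANCR measured 305, 473 and 365 CPM and DLEU1, from a region often deleted in B-cell leukaemia, 186, 186 and 173 CPM. TUBA1B-AS1 measured 1121, 1228 and 309.8 CPM, and since it lies antisense to TUBA1B, one of the 10 highest genes, its reads cannot be told apart from that gene's without the strand setting. In all, 375 of 1783 listed long non-coding genes were expressed, with a median CV of 18.7%, against 14.5% for the 8231 expressed protein-coding genes.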
